A study of Homo sapiens with 8 samples.

Results

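Polyamine synthesis and its regulators were followed as 10 genes, taken by their names and matched by Ensembl identifier to 10 of the 58787 rows of the deposited count table. They were ODC1, AMD1, SRM and SMS for synthesis, SAT1, SMOX and PAOX for breakdown, and OAZ1, OAZ2 and AZIN1 for control of ornithine decarboxylase. The cells were IMR32, an established human neuroblastoma line with amplified MYCN and, per the labels, wild-type genotype. The labels give one protocol for all flasks apart from the added agent. CR31B, a rocaglate that blocks the RNA helicase eIF4A, was given at its IC50, and the control flasks received 0.1% DMSO. RNA was taken after 6 h, with 4 libraries in each group. The study used this line as a model of MYCN-driven neuroblastoma, and a single line stands for the tumour here.

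Putrescine, spermidine and spermine are small positively charged molecules that bind RNA and DNA, and dividing cells need them. Ornithine decarboxylase makes putrescine, and spermidine synthase and spermine synthase then add aminopropyl groups that come from decarboxylated S-adenosylmethionine. Antizymes bind ornithine decarboxylase and send it to the proteasome, antizyme inhibitor relieves that block, and the ODC1 gene is a textbook target of MYC and MYCN that is of interest in neuroblastoma because its enzyme can be inhibited by difluoromethylornithine.

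Total counts ranged from 43687828 to 64715535 per library. All 6 adrenergic neuroblastoma markers used here were above 1 CPM (counts scaled to a common total with TMM factors) in every library, TH being the lowest at 1.77 to 3.03 CPM, whereas the 5 immune markers summed to at most 1.11 CPM. The label for tissue is brain, but the transcription factors HAND2 (661 to 1390 CPM) and GATA3 (240 to 932 CPM), named after their values were seen, mark the sympathetic lineage of this tumour. Both replicate 1 libraries were paired-end and the other 6 were single-end, and neither replicate 1 library lay with the single-end libraries of its own label. On the first principal component the library labelled CR31B replicate 1 lay at -26.4, beside the single-end DMSO libraries (-29.4 to -25.8), and the library labelled DMSO replicate 1 at 32, beside the single-end CR31B libraries (19 to 29). Replicate 1 therefore goes against the labels of replicates 2 to 4, and the tests of the 10 genes are given with and without it. Values given for the single-end libraries leave it out. An exchange of labels was not tested. The single-end directions rest on the labels of replicates 2 to 4 and would turn if those labels, and not the ones of replicate 1, were exchanged. In bulk RNA, fewer cells of a kind and less RNA per cell cannot be told apart.

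The MYC and MYCN recognition sequence, the E-box CACGTG, was looked for in the RefSeq promoter windows (250 bases before to 50 after each annotated start, GRCh38.p14) because ODC1 is known as a MYCN target. Windows were found for 7 of the 10 genes (not SMOX, PAOX or AZIN1). Of all 35116 windows 7.26% held the motif, which reads the same on both strands. Among the 7 genes it was found in ODC1 and SRM. ODC1 (minus strand) held both copies in the window of a downstream start. The first lay 29 bases before that start (chr2:10448024-10448053) and the second 5 bases after it (chr2:10447990-10448019). In GENCODE release 29 both copies were intronic in the 2 ODC1 transcripts that span them. The SRM copy (minus strand, chr1:11060200-11060229) lay 199 bases before the start. The E-box is in capitals in 30 bases of the gene's strand.
ODC1, first E-box: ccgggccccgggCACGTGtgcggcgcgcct
ODC1, second E-box: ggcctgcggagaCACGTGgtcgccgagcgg
SRM, E-box: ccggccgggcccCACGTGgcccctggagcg
The ATF4 and C/EBP composite element TGATGNAA, searched on both strands, was in 3.62% of all windows and in none of the windows of these 7 genes. A match describes the letters only, and no binding was measured.

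The levels of the 10 genes spanned nearly 3 orders of magnitude, and synthesis genes stood far above breakdown genes. Per exonic length, in TPM (counts divided by exonic length and scaled to a common sum) and averaged over the 3 DMSO libraries of the single-end batch, ODC1 was highest at 1120 ± 114 (SD, n = 3). SMS followed at 754 ± 40.3 TPM, AZIN1 at 255 ± 5.25, SRM at 241 ± 6.06, OAZ1 at 226 ± 0.417, AMD1 at 181 ± 7.38 and OAZ2 at 92.7 ± 3.7 TPM. The breakdown genes came last, with SMOX at 13.3 ± 1.23, SAT1 at 4.34 ± 0.509 and PAOX at 1.39 ± 0.144 TPM (SD, n = 3 for each). In the DMSO libraries no neighbours in this order overlapped. The length was the union of exons over all annotated transcripts (3436 bases for OAZ1 and 7671 for OAZ2), and no other length was tried. The order of near neighbours, and shares and ratios between genes, depend on that choice, which the SDs do not cover. With CR31B the order of the means was the same, and the ranges of SRM (213 to 226 TPM) and OAZ1 (208 to 219 TPM) overlapped.

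ODC1 was among the most abundant transcripts of these cells: over all 8 libraries its median was 1150 TPM, and 0.261% of detected genes had a higher one. It took 36.2% to 47.4% of the summed TPM of the 10 genes in each library, and SMS 19.2% to 27%. PAOX and SAT1, at most 0.0759% and 0.159% of that sum, rested on 29 to 61 and 62 to 167 counts per library, so counting error weighs most on them. The other 8 genes had at least 406 counts in every library.

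**Figure D1:**
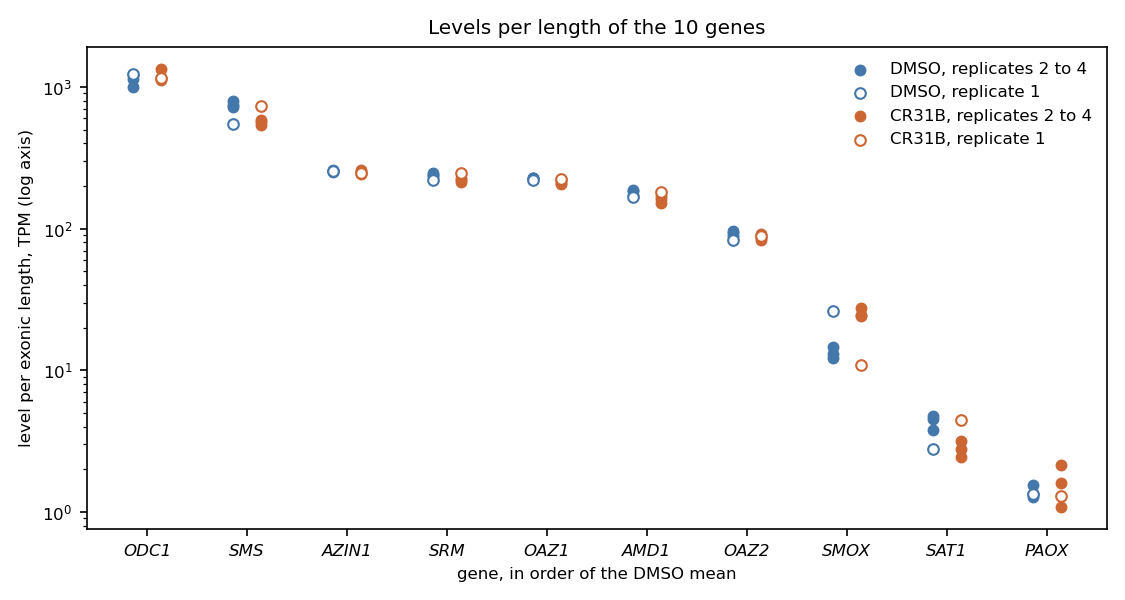
Level per exonic length (TPM, log axis) of each gene in every library, in order of the DMSO mean, with replicates 2 to 4 filled and replicate 1 open. ODC1 lies between 995 and 1340 TPM and PAOX between 1.08 and 2.14 TPM, and the SMOX, SMS and SAT1 symbols of replicate 1 fall with the other group.

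Within the 6 single-end libraries, CR31B went with a change in 3 of the 10 transcripts: SMOX, a breakdown enzyme, rose 1.92-fold, while SMS, the last step of synthesis, fell to 0.748 and SAT1, the acetylating enzyme of breakdown, to 0.65 of the DMSO level. The genes for the first steps of synthesis and for antizymes differed by less, and none of them passed in this fit. With the replicate number as a block, AMD1 and SRM also passed as lower (adjusted p = 0.00523 and 0.0226, edgeR), which makes 5 of 10. In that fit 51.1% of all tested genes passed. Without the block, 41.3% of the 16696 genes tested passed an adjusted p of 0.05 (edgeR quasi-likelihood test, Benjamini-Hochberg), with 23.8% higher and 17.6% lower. Of those calls 57.5% were higher, but 40% with upper quartile and 43.1% with total count scaling, so the balance of directions over all genes turned with the scaling. The polyamine genes, with 1 higher and 2 lower of 10, were not called more often than that background. Their median log2 fold change was -0.09, against -0.01 over all tested genes.

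With all 8 libraries as labelled and layout as a covariate, 0 of the 10 genes passed (edgeR), and the background was 0% of 16518 genes. At an unadjusted p under 0.05 the count was also 0 of 10, against 1.24% of all genes, and DESeq2 and limma voom called 0 as well. Between the 4 libraries of each label the CPM of every one of the 10 genes overlapped, whereas 0.66% of all tested genes did not. Pair 1 ran opposite to the mean of pairs 2 to 4 in 9 of the 10 genes, AZIN1 being the exception. The share was 84.1% over all genes tested in the single-end libraries. For OAZ1 the pair 1 difference was near 0 (0.00185 on the log2 scale), and for ODC1 and PAOX pairs 2 to 4 were of mixed sign. A test of treatment by layout, in which the spread comes from the single-end libraries, passed in 3 of the 10 (SMS, SAT1 and SMOX; edgeR, Benjamini-Hochberg) and in 42.5% of all genes.

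**Figure D2:**
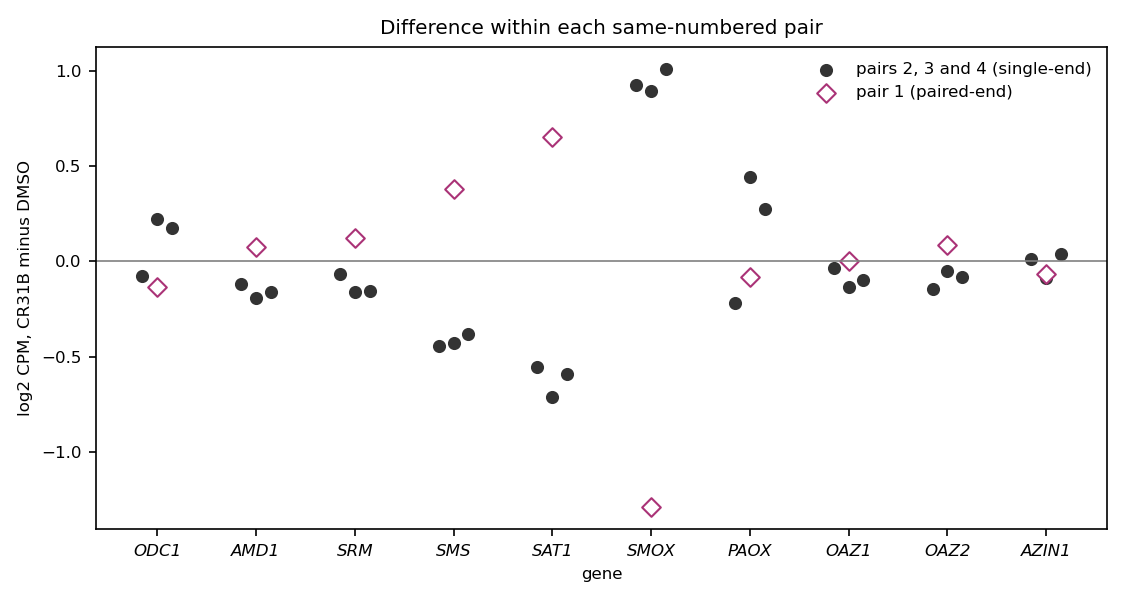
Difference in log2 CPM, CR31B minus DMSO, within each same-numbered pair, with pairs 2 to 4 as filled points and pair 1 as an open diamond. For SMOX pairs 2 to 4 lie between 0.896 and 1.01 and pair 1 at -1.29, and for SMS and SAT1 the signs are the reverse of these.

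Spermine oxidase, SMOX (ENSG00000088826, chromosome 20, 4120980 to 4187747, plus strand), turns spermine back into spermidine and releases hydrogen peroxide. In the libraries labelled CR31B it had 7.19 CPM in replicate 1 and 16.3, 17.5 and 16.1 CPM in replicates 2, 3 and 4. In those labelled DMSO it had 17.6 CPM in replicate 1 and 8.55, 9.38 and 8.02 CPM in the others. The single-end groups did not overlap, and each replicate 1 library lay at the level of the other label. SMOX rose from 8.65 ± 0.689 to 16.6 ± 0.743 CPM (SD, n = 3) in the single-end libraries, a log2 fold change of 0.94 ± 0.086 SE (adjusted p = 1.6e-05, edgeR with Benjamini-Hochberg adjustment). Only 2.52% of tested genes had a larger rise. With all 8 libraries the log2 fold change was 0.42 ± 0.36 (adjusted p = 0.707, edgeR), and the interaction with layout had an adjusted p of 6.91e-06.

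Spermidine/spermine N1-acetyltransferase, SAT1 (ENSG00000130066, chromosome X, 23783173 to 23786226, plus strand), marks polyamines for export or oxidation. SAT1 had 2.5, 1.79, 1.5 and 1.39 CPM under the label CR31B (replicates 1 to 4) and 1.58, 2.63, 2.47 and 2.1 CPM under the label DMSO. Replicate 1 again crossed over, and without it every CR31B library was below every DMSO library. SAT1 fell from 2.4 ± 0.273 to 1.56 ± 0.208 CPM (SD, n = 3), a log2 fold change of -0.62 ± 0.16 SE (adjusted p = 0.00954, edgeR, single-end batch). With 8 libraries it was -0.31 ± 0.24 (adjusted p = 0.707), and the interaction adjusted p was 0.00885 (edgeR). Both enzymes act on spermine, and in the single-end libraries their transcripts moved in opposite directions.

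The remaining breakdown gene, PAOX (ENSG00000148832, chromosome 10, 133379234 to 133391694, plus strand), oxidises acetylated polyamines in peroxisomes. It lay at 0.553 to 1.05 CPM with CR31B and at 0.646 to 0.77 CPM with DMSO over all 8 libraries. These ranges overlap, with and without replicate 1. The single-end log2 fold change of PAOX was 0.22 ± 0.25 (adjusted p = 0.519, edgeR), and pairs 2 to 4 differed in sign (-0.22, 0.44 and 0.28). No change was detected at 29 to 61 counts per library.

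Spermine synthase, SMS (ENSG00000102172, chromosome X, 21940573 to 21994835, plus strand), makes spermine from spermidine, and lies 1.79 Mb from SAT1. SMS had 352, 283, 252 and 275 CPM in the libraries labelled CR31B, replicates 1 to 4, and 271, 385, 340 and 358 CPM in those labelled DMSO. Each pair of replicates 2 to 4 fell by a like amount, whereas replicate 1 rose by 0.38 on the log2 scale. In the single-end libraries SMS fell from 361 ± 22.7 to 270 ± 15.9 CPM (SD, n = 3), with a log2 fold change of -0.42 ± 0.063 SE (adjusted p = 0.000461, edgeR). Over 8 libraries it was -0.22 ± 0.14 (adjusted p = 0.707), and the interaction adjusted p was 0.000623 (edgeR). Of the transcripts above 100 CPM among the 10, SMS was the one that passed in the main single-end fit. AMD1 also passed with the replicate block, and OAZ1 and OAZ2 with upper quartile or total count scaling.

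Ornithine decarboxylase, ODC1 (ENSG00000115758, chromosome 2, 10439968 to 10448504, minus strand), catalyses the first committed step, and its gene lies 5.49 Mb from MYCN on the same chromosome. It had 762, 768, 857 and 746 CPM in the libraries labelled CR31B and 838, 809, 734 and 660 CPM in those labelled DMSO, replicates 1 to 4 in order. The groups overlapped with and without replicate 1, and the single-end pairs differed in sign (-0.08, 0.22 and 0.18 on the log2 scale). The single-end log2 fold change of ODC1 was 0.11 ± 0.08 SE (adjusted p = 0.317), and 0.05 ± 0.097 (adjusted p = 0.853) over 8 libraries (edgeR).

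S-adenosylmethionine decarboxylase, AMD1 (ENSG00000123505, chromosome 6, 110874770 to 110895713, plus strand), supplies the aminopropyl donor. AMD1 had 283, 268, 231 and 258 CPM with CR31B and 269, 291, 264 and 289 CPM with DMSO (replicates 1 to 4). Each of pairs 2 to 4 was lower with CR31B, with log2 differences of -0.19 to -0.12, but the ranges of the single-end groups overlapped. The single-end log2 fold change of -0.16 ± 0.066 (SE) had an adjusted p of 0.0863, and with the replicate number as a block -0.16 ± 0.037 (adjusted p = 0.00523, edgeR). Offsets on GC content and transcript length moved the AMD1 log2 fold change to -0.37 (adjusted p = 0.00242, edgeR). Without DMSO replicate 3 it was -0.20 (adjusted p = 0.0446, edgeR). Over 8 libraries it was -0.1 ± 0.085 (adjusted p = 0.707, edgeR).

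Spermidine synthase, SRM (ENSG00000116649, chromosome 1, 11054584 to 11060024, minus strand), had 104, 96.7, 87.1 and 94.1 CPM with CR31B and 96, 101, 97.5 and 105 CPM with DMSO, replicates 1 to 4. The single-end groups were separated by less than 1 CPM. Its log2 fold change was -0.13 ± 0.056 SE (adjusted p = 0.0917), or 0.0226 with the replicate block (edgeR). With GC and length offsets beside the block it was -0.07 (adjusted p = 0.153, edgeR). Over 8 libraries it was -0.07 ± 0.078 (adjusted p = 0.743, edgeR). With the block in the single-end libraries, 5 of the 10 genes passed, 1 higher and 4 lower, where 51.1% of all tested genes passed, 28.1% higher and 23.1% lower.

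**Figure D3:**
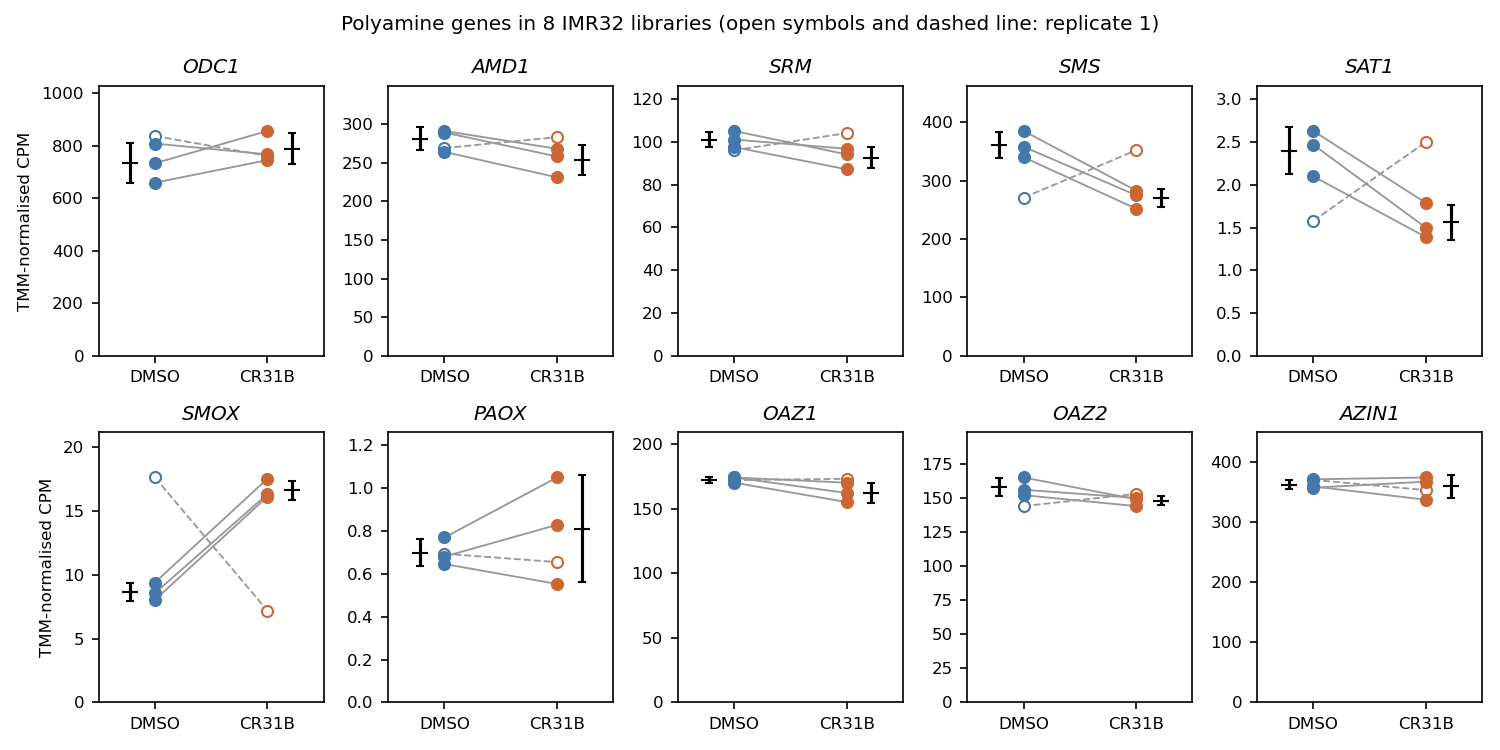
TMM-normalised CPM of each gene in the 8 libraries, on axes from 0, with lines joining same-numbered libraries, open symbols and dashed lines for replicate 1, and black bars for the mean ± SD of the 3 single-end libraries. SMOX, SMS and SAT1 show 3 parallel solid lines crossed by the dashed line, and ODC1, PAOX and AZIN1 show lines of mixed sign.

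None of the 3 genes that govern ornithine decarboxylase protein passed in either fit. Antizyme 1, OAZ1 (ENSG00000104904, chromosome 19, 2269509 to 2273490, plus strand), is made through a ribosomal frameshift that polyamines promote. OAZ1 had 173, 170, 155 and 162 CPM with CR31B and 172, 174, 170 and 174 CPM with DMSO. Without replicate 1 the groups did not overlap, yet the distance between them was smaller than the spread of the CR31B libraries. Its single-end log2 fold change was -0.09 ± 0.05 SE (adjusted p = 0.202), and -0.06 ± 0.066 (adjusted p = 0.718) over 8 libraries (edgeR).

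Antizyme 2, OAZ2 (ENSG00000180304, chromosome 15, 64687573 to 64703281, minus strand), had 153, 149, 150 and 144 CPM with CR31B and 144, 165, 156 and 152 CPM with DMSO. The single-end groups lay next to each other without overlap. The log2 fold change was -0.09 ± 0.05 SE (adjusted p = 0.169) in the single-end libraries and -0.05 ± 0.07 (adjusted p = 0.784) in all 8 (edgeR). Scaling by upper quartile or total counts brought both antizymes past the threshold in the single-end libraries, at -0.18 and -0.16 for OAZ1 and -0.19 and -0.17 for OAZ2. The single-end CPM of 6 of the 10 genes did not overlap between groups (SRM, SMS, SAT1, SMOX, OAZ1 and OAZ2), against 52.1% of all tested genes.

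Antizyme inhibitor, AZIN1 (ENSG00000155096, chromosome 8, 102826357 to 102893864, minus strand), is a relative of ornithine decarboxylase without its activity. It had 354, 375, 338 and 368 CPM with CR31B and 371, 372, 360 and 358 CPM with DMSO. The groups overlapped, and the log2 fold change was -0.01 ± 0.054 SE (adjusted p = 0.893) in the single-end libraries and -0.03 ± 0.069 (adjusted p = 0.883) in all 8 (edgeR). Some exonic bases of OAZ1 (6.87%), OAZ2 (7.22%) and AZIN1 (5.35%) are also exons of genes on the opposite strand. Those genes held 459, 83 and 646 counts over the 8 libraries, against 73258, 66182 and 156979 for OAZ1, OAZ2 and AZIN1. On the same strand OAZ1 shares 6.4% and PAOX 6.94% of exonic bases with genes that held 0 counts.

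Ratios between members were taken per length within a library, for 6 pairs of genes. Their size depends on the exonic lengths used, whereas the overlap between groups does not. The SRM to SMS ratio was 0.389, 0.393 and 0.39 in the single-end CR31B libraries and 0.3, 0.326 and 0.333 in the single-end DMSO libraries, with 0.337 and 0.403 in the replicate 1 libraries labelled CR31B and DMSO. The ODC1 to OAZ1 ratio was 5.65 ± 0.649 with CR31B and 4.93 ± 0.495 with DMSO (SD, n = 3), and overlapped between groups. The AZIN1 to OAZ1 ratio was 1.19 ± 0.0221 and 1.13 ± 0.0212 in the same order, without overlap. The ODC1 to AMD1 ratio was 7.46 ± 1.14 with CR31B and 6.19 ± 0.676 with DMSO, also without overlap. The OAZ1 to OAZ2 ratio (2.45 ± 0.134 and 2.44 ± 0.0937) and the AMD1 to SRM ratio (0.736 ± 0.0174 and 0.751 ± 0.0226) overlapped. In 3 of the 6 pairs, then, the single-end groups were apart. The share over all pairs of genes was not computed, and of single genes 52.1% did not overlap in CPM. With 3 libraries against 3 an exact permutation test cannot give a p under 0.1, so these ratios are descriptions. The summed TPM of SAT1, SMOX and PAOX was 28.2 to 32.4 in the single-end CR31B libraries and 17.3 to 20.7 in the single-end DMSO libraries, SMOX making up most of it.

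Beyond the 10 genes, 39 others of the wider pathway were listed, of which 27 were tested in the single-end libraries. Of these, 5 passed as higher and 6 as lower with CR31B (edgeR, adjusted p under 0.05), beside the 23.8% and 17.6% of all genes, and their median log2 fold change was -0.04. With the replicate block 7 passed as higher and 7 as lower, beside 28.1% and 23.1% of all genes. Over 8 libraries 0 of the 27 passed, and 0 had an unadjusted p under 0.05. Pair 1 ran opposite to pairs 2 to 4 in 22 of them (81.5%), beside 84.1% of all tested genes.

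Ornithine supply had 2 of 5 tested genes higher and 0 lower, beside 23.8% and 17.6% of all tested genes. SLC7A1, the main cationic amino acid carrier for arginine and ornithine, rose from 169 ± 12.7 to 285 ± 19 CPM (SD, n = 3), a log2 fold change of 0.76 ± 0.069. SLC25A15, the mitochondrial ornithine carrier, rose from 59.2 ± 0.293 to 68.4 ± 3.05 CPM, and did not pass with upper quartile (adjusted p = 0.116, edgeR) or total count scaling (0.0824). ARG2, OAT and ALDH18A1, enzymes that form or use ornithine, did not pass, with log2 fold changes of -0.12, -0.07 and 0.08. ARG2 shares 37.4% of its exonic bases with VTI1B on the opposite strand, so its values are less certain.

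Among transport genes 1 of 6 tested was higher and 3 lower, beside 23.8% and 17.6% of all tested genes. SLC3A2, the heavy chain of amino acid exchangers that has also been linked to polyamine export, rose from 85.3 ± 0.86 to 131 ± 10.5 CPM (log2 fold change 0.62). ATP13A2, the lysosomal polyamine exporter, fell from 19.3 ± 0.463 to 13.3 ± 0.259 CPM (-0.53). GPC1, a heparan sulfate proteoglycan linked to polyamine uptake, fell from 76.4 ± 7.36 to 61.6 ± 7.37 CPM (-0.31). The call for GPC1 was lost without CR31B replicate 4 (adjusted p = 0.0529, edgeR) or DMSO replicate 2 (0.0818).

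For S-adenosylmethionine synthesis and methylthioadenosine salvage, 1 of 7 tested genes was higher and 2 lower, beside 23.8% and 17.6% of all tested genes. With the replicate block 2 were higher and 3 lower, beside 28.1% and 23.1%. ADI1, a dioxygenase of the salvage route, fell from 83.4 ± 3.69 to 61.9 ± 5.41 CPM (log2 fold change -0.43). MAT2A, the catalytic subunit of methionine adenosyltransferase, fell from 343 ± 50.8 to 270 ± 25.2 CPM (-0.34), while MAT2B, its regulatory subunit, rose from 172 ± 3.41 to 197 ± 10.5 CPM (0.19). Without DMSO replicate 4 the log2 fold change of MAT2A was -0.21 and did not pass (adjusted p = 0.0671, edgeR). MAT2B did not pass without CR31B replicate 4 (0.058) or DMSO replicate 3 (0.0515), nor with upper quartile (0.097) or total count scaling (0.0542). With GC and length offsets the log2 fold change of MAT2B was 0.06 (adjusted p = 0.408, edgeR). MAT2A shares 12.4% of its exonic bases with GGCX on the opposite strand and ADI1 7.86% with noncoding genes, and since no strand setting is stated their values are less certain.

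Spermidine also feeds hypusine, the modified lysine of the translation factor eIF5A. Of the 4 genes tested there, 1 was higher and 0 lower, beside 23.8% and 17.6% of all tested genes. DOHH, the second enzyme of hypusine formation, rose from 15.2 ± 1.11 to 20.4 ± 2.65 CPM (log2 fold change 0.42). DHPS, the other enzyme, held only 9 to 46 counts per library and did not pass. It shares 38.5% of its exonic bases with a gene on the same strand, so its values are less certain. EIF5A itself did not pass at 800 CPM with DMSO and 779 CPM with CR31B. EIF5A shares 8.56% of its exonic bases with GPS2 on the opposite strand, so its values are less certain. Among homologues and other turnover genes 0 of 5 tested were higher and 1 lower, beside 23.8% and 17.6% of all tested genes. SAT2, a relative of SAT1, fell from 13.5 ± 0.999 to 10.1 ± 0.379 CPM (-0.42). With the replicate block 1 of the 5 was higher and 1 lower, beside 28.1% and 23.1% of all tested genes. In pair 1 the 10 genes named from these lists, which were chosen by their single-end calls, had the opposite sign, as did 84.1% of all tested genes.

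**Figure D4:**
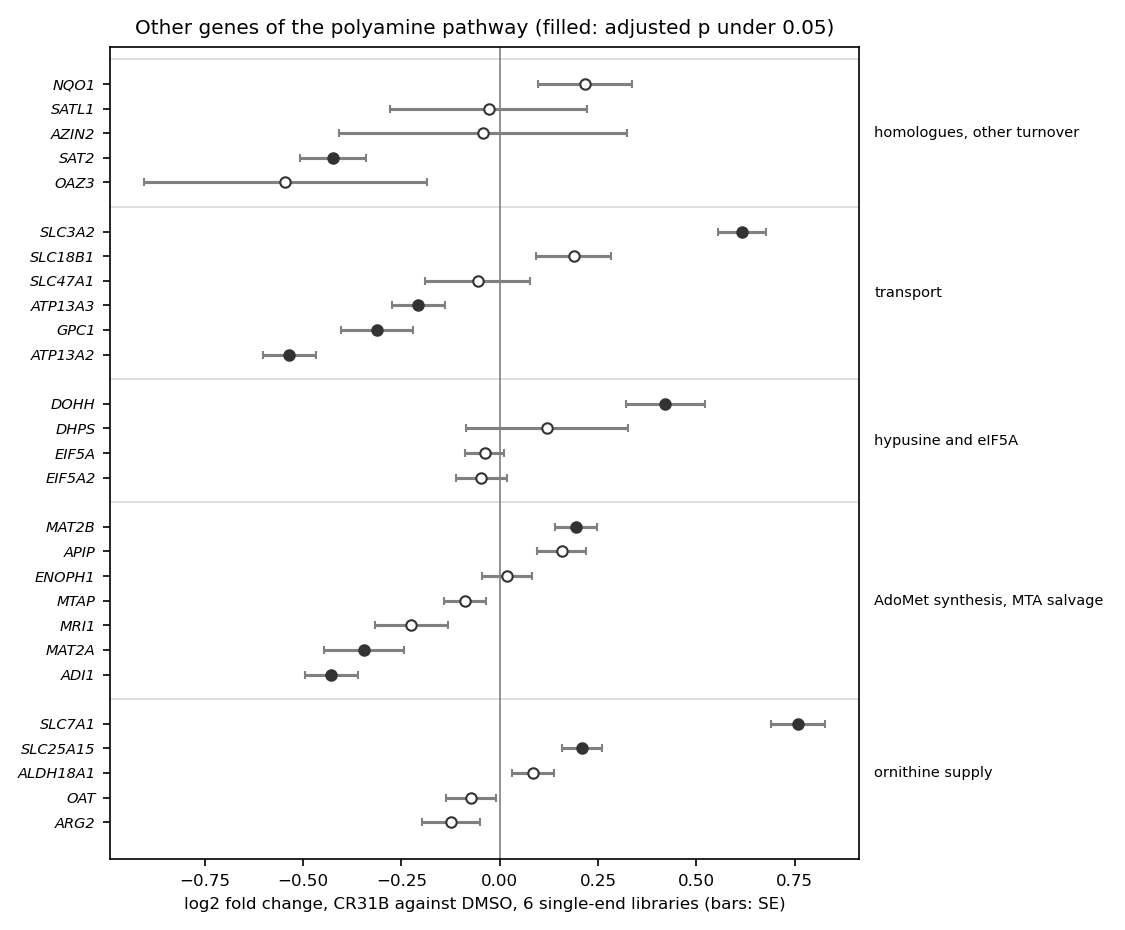
Log2 fold change of CR31B against DMSO in the 6 single-end libraries, with bars for the SE, for the 27 tested genes of 5 pathway lists, filled where the adjusted p was under 0.05. SLC7A1 (0.76) and SLC3A2 (0.62) lie farthest to the right, and ATP13A2 (-0.53) is the lowest of the filled points.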

How the data were processed

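The deposited file is a single table that gives whole, unscaled read counts for each Ensembl gene in 8 columns. The submitters' processing notes name GRCh38, STAR 2.7.2b, FastQC 0.11.7, edgeR 3.36.0 and limma 3.50.3. The counting tool and annotation are not given in the sources used here. The deposited table's name holds the word reverse, which may be a strand setting, but no label or header states one, so genes overlapping on opposite strands are given as less certain. Columns were assigned by name. The header of one column (CR31B replicate 4) lacks its first letter. Coordinates and exonic lengths come from GENCODE release 29, which holds 58515 of 58787 identifiers.

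Tests were two-sided quasi-likelihood tests of edgeR 4.0.16 (R 4.3.3) on genes kept by filterByExpr, with TMM scaling, Benjamini-Hochberg adjustment over all tested genes and a threshold of 0.05. One fit took all 8 libraries with layout as covariate, another the 6 single-end libraries. Alternatives were other scalings and filters, DESeq2 1.42.0, limma 3.58.1 (voom), a replicate block, GC and length offsets, and leaving out each library. Log2 differences by pair used a prior count of 1, and TPM was computed from counts and the union of exonic bases over all annotated transcripts. One marker gene is not reported here. Members and lists were chosen with earlier results of these data known. All 10 members are named, and from each list up to 3 called genes with the smallest adjusted p. In single-end libraries the deviations from group means of same-numbered libraries correlated at 0.208, 0.388 and 0.157, above the 0.1 used as threshold for pairing. Correlations of differently numbered libraries were not computed. The main single-end fit does not use the pairing, and the fit with the replicate block does. No 2 libraries were duplicates (smallest chi-square per gene 7.28, where 1 is expected). On counts simulated at each fit's own coefficient of variation, with 200 genes changed 2-fold, 85% were recovered for 8 libraries (16.3% variation, 16363 genes, 9 false calls among 179) and 88.5% for the single-end ones (7.46%, 16410 genes, 6 false among 183). The simulation holds no reversed pair. The labels describe 4 biological replicates. They do not describe molecular identifiers, so counts may include PCR duplicates.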

Additional observations from a re-analysis of the deposited data

Results flagged for a closer look

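The difference between CR31B and DMSO was not the same in the paired-end and the single-end libraries for 13 of the 20 genes named (edgeR test of treatment by layout, Benjamini-Hochberg; the paired-end batch holds 1 library a group), where 42.5% of all tested genes passed. These were 3 of the 10 polyamine genes and all 10 genes named from the pathway lists, which had been chosen by their single-end calls. The adjusted p was 6.91e-06 for SMOX, 0.000623 for SMS and 0.00885 for SAT1. It was 1.95e-05 for SLC7A1, 3.88e-05 for SLC3A2, 0.000112 for ATP13A2, 0.00167 for ADI1, 0.00175 for SAT2, 0.00177 for SLC25A15, 0.00355 for DOHH, 0.00449 for MAT2B, 0.00938 for MAT2A and 0.024 for GPC1. In all 13 the sign of pair 1 was opposite to that of pairs 2 to 4, and layout and replicate 1 cannot be told apart.

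In 6 of 40 sets of 4 same-label libraries a single library lay far from the other 3, measured as its gap to the nearest over the whole range, where chance gives about 2 (1 in 20) and 12% of such sets over all tested genes were as far. Of the 6, 2 of 20 sets belonged to the polyamine genes and 4 of 20 to pathway genes chosen by their single-end calls, a choice to which the 1 in 20 does not apply. The distant library was replicate 1 in all 6. The ratio was 0.858 for SMOX with DMSO and 0.869 for SMOX with CR31B. It was 0.841 for SLC7A1, 0.934 for SLC25A15 and 0.969 for SLC3A2 with DMSO, and 0.948 for ATP13A2 with CR31B. All 40 sets come from the same 8 libraries, so the ratios are tied to each other.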

How the results depend on the processing

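In the single-end libraries SMOX, SMS and SAT1 kept their direction and passed under all 16 alternatives, with log2 fold changes of 0.847 to 1, -0.515 to -0.37 and -0.73 to -0.547. The count of members called was 3, and became 7 with upper quartile scaling, 7 with total counts, 5 with a filter of at least 1 CPM, 5 with the replicate block, and 4 with no filter, with GC and length offsets, and with these offsets and the block. Of all 16696 tested genes 6901 were called, and 7519, 7375 and 8540 with upper quartile, total counts and the block. The filter of 1 CPM gave 6974 of 13236 and no filter 7326 of 29503. The offsets gave 6718 of 16673, and 8457 with the block. The added member was AMD1 where 4 members passed, and AMD1 and SRM where 5 passed. With both scalings OAZ1 and OAZ2 were added too, and all of these were lower. Those scalings moved the median of all genes to -0.102 and -0.0849, and the share of higher calls from 57.5% to 40% and 43.1%. They also raised the members called by the layout interaction from 3 to 7 and 7. The share of all genes passing the interaction under those scalings was not computed. The block changed no other member's call. As labelled, members called went from 0 to 3 and genes called from 0 to 6901 in a fit of the single-end batch by itself. Leaving out each of the 8 libraries in turn gave 0 to 6920 genes and 0 to 3 members. Calls came only without CR31B replicate 1 or DMSO replicate 1. There the layout covariate takes up the paired-end library that is left, so these fits in effect repeat the single-end fit. They add no separate support for its calls. Leaving out libraries of the single-end fit gave 3 to 4 members (AMD1 passed without DMSO replicate 3, and in 8 of 16 alternatives in all). When each of the 8 libraries was left out, ODC1 ranged from -0.00879 to 0.108, AZIN1 from -0.0475 to 0.00307 and PAOX from -0.0438 to 0.294. In the single-end fits AZIN1 ranged from -0.0376 to 0.0341 and PAOX from -0.0328 to 0.438. These are changes of sign near 0, none of which passed, and the cause was not tested. PAOX was not tested under the filter of at least 1 CPM. The count of pathway list genes called in the single-end libraries was 11, and became 14 with upper quartile scaling and 14 with the replicate block. Of the 10 genes named from the pathway lists, SLC7A1, SLC3A2, ATP13A2, ADI1, SAT2 and DOHH passed under all 16 single-end alternatives, SLC25A15 and GPC1 under 14, MAT2A under 15 and MAT2B under 10, each keeping its direction. This comparison was added after seeing the data.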
